A study of Mus musculus with 2 samples.

Results

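The contigs described here are the 906 stretches of at least 5000 bases with unbroken RNA signal in mouse mammary gland, out of 700384 contigs in the deposited table. A contig is a run of genome covered by reads on 1 strand. Members were selected on their length (end minus start), on lying outside the mitochondrial chromosome and on a deposited score under 0.1, so none of those properties is a result. Poly(A) RNA longer than 200 nt, depleted of ribosomal RNA, was sequenced with strand information in 2 libraries. Both came from mammary gland of C57BL/6J mice, an inbred laboratory strain, at 8 weeks of age, and each was RNA pooled from male and female littermates. The labels name the libraries biological replicates 1 and 2 of 1 group and give no contrast, so there is no comparison of conditions and no p-value. The contigs and junctions were deposited once for the series, so a contig has 1 level, while the gene tables give each replicate. Values paired below stand for replicate 1 and then replicate 2.

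Most mammalian genes are cut into short exons separated by introns, and mature poly(A) RNA leaves separate blocks of signal, 1 per exon. A long unbroken block can come from an exon that is itself long, most often a last exon with a long 3' untranslated region, from a long non-coding RNA with little splicing, or from reads that run through introns and join neighbouring exons. Splice junctions, which are reads that skip an intron, show where introns were removed inside a block.

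To show where such blocks start, 6 splice junctions are printed that led into a long exon and whose contig then ran from the acceptor site to exactly the annotated end of that exon. Each line gives the last 30 bases of the preceding exon in lower case and the first 30 bases of the long exon in capitals, from the annotated transcript (GENCODE M21), with both sides coding. The contig positions are on mm9.
Ttn: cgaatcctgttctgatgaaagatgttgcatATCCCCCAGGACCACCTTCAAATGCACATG
Peg3: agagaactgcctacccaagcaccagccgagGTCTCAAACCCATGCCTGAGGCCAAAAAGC
Sesn3: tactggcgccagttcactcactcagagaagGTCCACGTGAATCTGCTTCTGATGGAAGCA
Sbno1: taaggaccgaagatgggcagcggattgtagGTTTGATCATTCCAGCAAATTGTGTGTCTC
Pank3: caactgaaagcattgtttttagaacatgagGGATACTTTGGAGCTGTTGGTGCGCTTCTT
Tacc2: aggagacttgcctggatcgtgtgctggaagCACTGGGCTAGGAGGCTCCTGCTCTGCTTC

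The Ttn junction, in the gene of the giant muscle protein titin, was read 34 times and led into an internal exon of 17106 bases. The Peg3 junction, in an imprinted gene for a zinc finger protein, was read 32 times and led into a last exon of 7840 bases. Sesn3, which encodes a stress-induced sestrin, had 172 reads into a last exon of 7482 bases. The junction of Sbno1 had 154 reads into 5964 bases, and that of the pantothenate kinase gene Pank3 had 25 reads into 5878 bases. Tacc2 encodes a centrosomal coiled-coil protein, and its junction had 89 reads into an internal exon of 5121 bases. Of the 26 contigs with such a coding junction and an end within 25 bases of the annotated one, 9 matched it to the base. Among transcripts that share a junction, the exon closest in length to the contig was the one compared.

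The long contigs were 0.129% of all contigs, but held 2.42% of contig length and 17.6% of read bases outside the mitochondrial chromosome. Their length ran from 5002 to 21144 bases with a median of 5982.5 bases. Of the 906, 458 were shorter than 6000 bases, 44 reached 10000 bases and 4 reached 15000 bases. The level is the deposited density of read bases, where 1 unit stood for a mean read depth of 18.7. It ran from 0.662 to 2180 with a median of 8.87, against a median of 0.515 over the 311042 shorter contigs with the same score limit. Because a low level can end a contig early, selection on length favours high levels, and this contrast is a description only. Read bases were concentrated in few members, since the 10 with the most held 40.2% of those in all 906. At the threshold, the 3 shortest members were contigs of 5002 bases in Sipa1, Mat2a and Sirpa, at levels of 32.5, 12.9 and 2.9. The 3 contigs just below it, of 4999, 4998 and 4995 bases, lay in Cdo1, Gpam and Foxp4, at levels of 11.2, 63.9 and 11.9.

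The members lay on every chromosome except Y. Chromosome 11 held 97, chromosome 7 held 87 and chromosome 2 held 83, while the X chromosome held 9. Per 1000 contigs of the chromosome, chromosome 15 had the most at 2.11 and the X chromosome, apart from Y, the fewest at 0.538. The plus strand carried 436 and the minus strand 470.

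**Figure D1:**
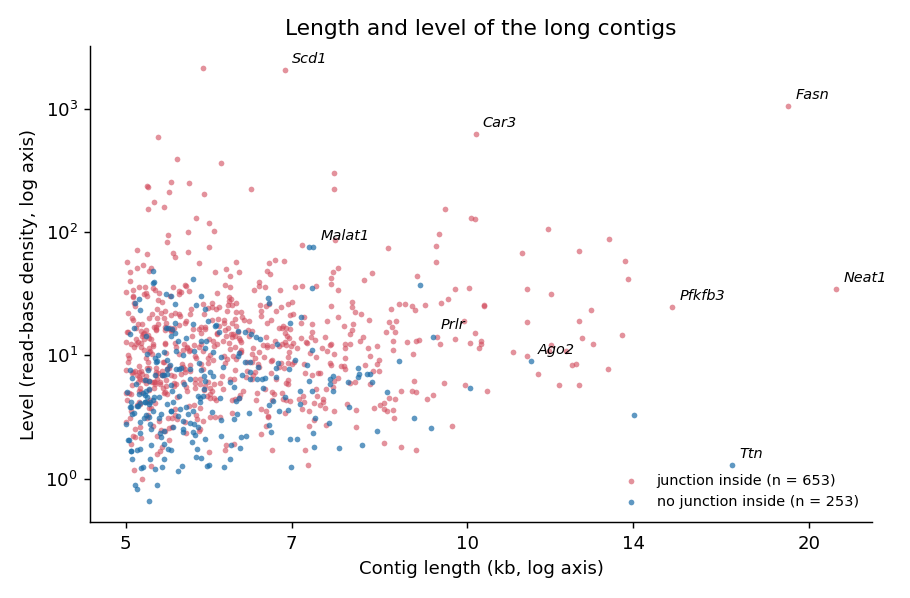
Each point is 1 of 906 long contigs, with its length in kb and its level as read-base density, both on log axes, coloured by whether a splice junction lies inside. Contigs with no junction inside reach a level of 76.4 at most, while those with a junction reach 2180.

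Genes were assigned to 837 of the 906 contigs, 788 from the lengths of neighbouring introns and exons and 49 from their distance to flanking introns. These were 802 genes, and 34 of them had at least 2 long contigs. Of the 837 contigs, 823 belonged to protein-coding genes, 8 to long intergenic non-coding RNA genes and 2 to immunoglobulin heavy chain constant genes. Introns of at least 2 genes touched 21 contigs, such as that of Rgl2 and Tapbp (9747 bases) and that of Map4k2 and Men1 (7293 bases).

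The longest contig was Neat1, the non-coding RNA that scaffolds nuclear paraspeckles, with 21144 bases at chromosome 19, 5824719 to 5845862, minus strand. Its level was 34.4, its longest annotated exon has 20771 bases, and its deposited TPM, a length-corrected transcript abundance, was 509 and 487. Fasn, the fatty acid synthase of lipogenesis, followed with 19169 bases at chromosome 11, 120666725 to 120685893. It differed from Neat1 in structure: 111 junctions lay inside, against 3 in Neat1. All 42 introns of an annotated Fasn transcript were among the 111. Matched introns, which can be exon in another transcript, made up 45.1% of the Fasn contig, against 1.46% of the Neat1 contig. The level of Fasn was 1060 and its TPM 10582 and 16923. Next came the Ttn exon printed above, at chromosome 2, 76574121 to 76591232, with no junction inside and a level of 1.28.

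Pfkfb3, an enzyme that sets the level of a glycolysis activator, gave 15161 bases with 14 junctions, of which 79.6% were intron. Plec, the cytoskeletal linker plectin, gave 13847 bases. Pcx, pyruvate carboxylase, gave 13760 bases at a level of 59.0. Rhbdf1, an inactive rhomboid protease, gave 13699 bases with 20 matched introns. Glul, glutamine synthetase, gave 13335 bases at a level of 88.6 and had a TPM of 1831 and 754. Coro7, an actin regulator of the Golgi, gave 13311 bases.

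The highest level, 2180, belonged to a contig of 5850 bases at chromosome 17, 39979936 to 39985785, plus strand, to which no gene was assigned. It held 43 junctions, none of which matched an annotated intron chain, and lay between matched introns of H2-M2 and Mut. At the same distances from both, RefSeq (GRCm38.p6) places Rn18s-rs5, a pseudogene related to 18S ribosomal RNA, and the non-coding RNA AY036118. Scd1, the stearoyl-CoA desaturase, had the next level, 2070, over 6904 bases with 25 junctions. Car3, a carbonic anhydrase abundant in adipocytes, reached 629 over 10169 bases. The glycolytic aldolase Aldoa reached 592 and the triglyceride lipase Pnpla2 reached 392. The others among the 10 highest were Fasn, the elongation factor Eef2 (365), the invariant chain Cd74 (305), the lysosomal prosaposin Psap (255) and the kinase Mknk2 (251). The TPM was 6466 and 6347 for Scd1 and 7634 and 8896 for Car3. Aldoa was higher in replicate 1, at 6523 and 2650, and Pnpla2 was higher in replicate 2, at 1755 and 2496. After Fasn, the most junctions lay in Ighm, the immunoglobulin mu heavy chain, with 48, in the lipid droplet gene Plin4 with 45, in the unassigned chromosome 17 contig with 43 and in the chaperone gene Bag6 with 35.

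Junctions split the members. No junction with a score under 0.1 lay inside 253 contigs, or 27.9%, and at least 1 lay inside the other 653. The share was 41.7% when junctions needed a score under 0.01, 7.40% when junctions of any score counted and 7.06% when 1 end of the intron inside was enough. In 186 of the 253, junctions at or above the limit lay inside, the best supported one in each having a median of 2 reads and at most 8. That was a median of 0.0154 reads per unit of the contig's read depth. By length, the share without a junction was 43.9% in contigs from 4000 to below 5000 bases, 34.5% to below 6000, 23.8% to below 8000, 17.5% to below 10000 and 9.09% from 10000 bases on. Contigs without a junction had a median length of 5733 bases and a median level of 5.12. Those with a junction had a median length of 6148 bases, a median level of 11.8 and a median of 5 junctions. A longer contig has more room for a junction, and the median level rose over the length steps above, from 6.56 to 14.25. The part of length and level in these shares was not tested.

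Among the 253 contigs without a junction, 149 were entered from the 5' side by a matched junction, and 123 of those junctions led into a last exon. The contig then ended within 10% of the annotated length of that exon in 86 of 123, or 69.9%, and within 25 bases in 48. It ran more than 10% longer in 29 and stopped more than 10% short in 8. The median absolute distance from the annotated end was 91 bases, and the median signed difference, contig stretch minus annotated exon, was 2 bases. Where transcripts share the junction, the exon closest in length to the contig stretch was compared, so these values favour agreement. The split into last and internal exons rests on the same choice. In 83 of the 123 the contig began at the acceptor, with less than 10% of its length before it. In the other 40 it began farther upstream, a median of 1199 bases before the acceptor. Wdr26, a ubiquitin ligase subunit, is an example, since its contig held 2620 bases before the acceptor and then 4606 bases against an exon of 4604. Contigs that began at the acceptor had a median level of 6.47, and those that began upstream 7.18.

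The longest contigs of this kind belonged to Ago2, the Argonaute protein of RNA interference, with 11369 bases, and to Prlr, the prolactin receptor, with 9326 bases. In Ago2 the contig ran 68 bases past the annotated end, at a level of 8.98. In Prlr it ran 63 bases past an exon of 8729 bases, at a level of 14.2. The Prlr contig also lay wholly inside another matched intron of Prlr on the same strand, so this last exon belongs to only some Prlr transcripts. As whole genes, Prlr stood at 58.0 and 26.9 TPM, and Ago2 at 13.7 and 15.7 TPM.

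Contigs that ran well past the annotated end were fewer. In 19 of the 123 the stretch from the acceptor was over 2 times the annotated last exon. Psme3, a proteasome activator subunit, ran 5359 bases against 1746, and Sgcd, a sarcoglycan, ran 8319 bases against 652. Hint3, a nucleotide hydrolase, ran 5279 bases against 283. The mitochondrial carrier gene Ucp2, with 5092 bases against 2785 at a level of 39.2, stayed under 2 times. The annotation used has other transcripts for many genes, and the length compared was that of the closest exon that the best supported junction enters.

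**Figure D2:**
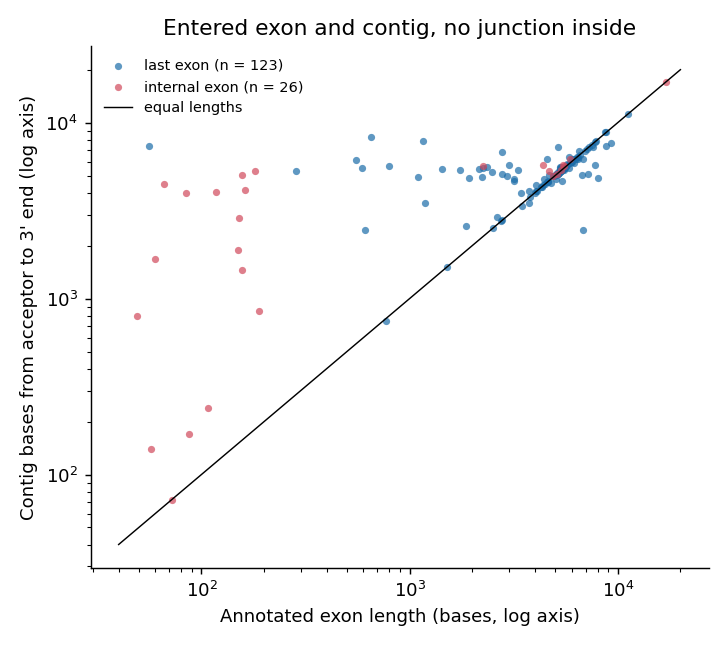
Each point is 1 of 149 contigs with no junction inside that a matched junction enters, with the annotated length of the entered exon and the contig bases from the acceptor to the contig's 3' end, in bases on log axes. The line marks equal lengths, and 86 of 123 last exons lie within 10% of it. Among transcripts that share the junction, the exon closest in length to the contig stretch is shown.

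The transcripts of the 48 last exons whose end the contig reached within 25 bases were searched, on the transcript strand, for the poly(A) signals AATAAA and ATTAAA in their last 50 bases. AATAAA was present in 35 of 48, or 72.9%, and either signal in 43 of 48, or 89.6%. Over the most abundant transcript of 14368 genes at 1 TPM or more on average, the shares were 54.0% and 66.8%. The share is a description of annotated transcript ends, and not all transcripts in that set are complete at their 3' end.

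Internal exons were entered in 26 contigs. In 9 the contig began at the acceptor, and 6 of these ended within 10% of the annotated exon. Besides Ttn and Tacc2 they included Zfp646, a zinc finger gene (5381 bases against 5349), Ahdc1, a DNA-binding protein gene (4967 against 4902), and Hivep2, a zinc finger transcription factor (5690 against 5506). A second Ttn contig, at chromosome 2, 76546504 to 76552272, covered 5766 bases against an exon of 5459, at a level of 25.5 against the 1.28 of the longer one. In the other 17, the contig began farther upstream, a median of 4440 bases before the acceptor, and the exon had a median of 117 bases. These had a median level of 2.33, although their genes had a median mean TPM of 69.9. The membrane trafficking gene Tom1l2, with 8082 bases, 6410 of them before an exon of 60, and the serine protease gene Htra3, with 6525 bases, 5732 of them before an exon of 49, are examples.

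In 605 of the 653 contigs with a junction inside, at least 1 inside junction matched an annotated intron. Matched introns, of any annotated transcript, made up a median of 50.9% of the length of these contigs, over 50% in 311 of them and over 75% in 97. Bases that are exon in another transcript were not removed, so this is not a share of sequence outside all exons. The range was 1.46% in Neat1 to 96.3% in Bin3, a gene of membrane curvature. Where introns took at least 75% of the contig, the median level was 7.78, against 10.25 where they took under 25% and 13.2 from 25% to 50%. The inside junctions then had a median of 1.98 reads per unit of mean depth, against 1.18 where introns took under 25%. Level and mean depth are averages over the whole contig, intron bases included. Both comparisons therefore depend on the intron share itself and do not measure splicing. After Bin3, the highest intron shares were 95.3% in Flot2, a membrane raft protein gene, 95.2% in the ubiquitin ligase gene Rnf123, 95.0% in a contig of 12467 bases in H2afy, which encodes a macroH2A histone, and 93.5% in Dnm1, dynamin. Levels were 4.32 in Flot2 and 8.49 in H2afy. A contig reports joined signal only and does not separate spliced from unspliced RNA.

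**Figure D3:**
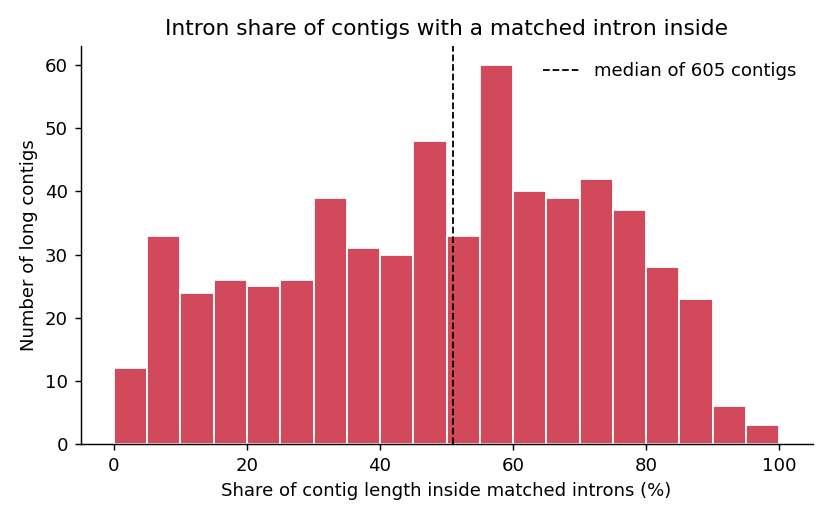
The bars count long contigs with at least 1 matched intron inside (605) by the share of their length inside such introns, in steps of 5%. The dashed line is the median, 50.9%.

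Some contigs held every intron of a transcript of their gene. All introns of the gene's most abundant transcript lay inside 68 contigs, 24 of them with at least 5 introns, at a median level of 18.6 and a median intron share of 54.5%. That transcript can be a short one, with 3 introns for Fasn and 1 each for Srrm2 and Taok2. The 68 are therefore not a count of whole genes. Besides Fasn, whose complete 42 introns belong to a transcript other than the most abundant one, the largest was Srebf1, the transcription factor of lipogenesis, with 17 introns in 11786 bases at a level of 107. Its TPM was 572 and 1094. Slc25a10, the mitochondrial dicarboxylate carrier, had 10 introns in 9447 bases at a level of 96.3. Coro1a, a coronin of leukocytes, had 10 introns in 5917 bases. Aup1, a lipid droplet protein, and Abtb1 had 11 introns each, in 5044 and 6213 bases.

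Other genes were covered in pieces. Acly, the ATP citrate lyase that supplies acetyl-CoA for lipogenesis, gave 3 long contigs of 10232, 9023 and 5211 bases at levels of 11.5, 44.0 and 32.0, with 83.8%, 87.9% and 80.3% intron. Plin1, the perilipin of lipid droplets, gave contigs of 5232 and 6254 bases at levels of 156 and 57.9. Together with Fasn and Scd1 these were the 4 of 12 adipocyte genes listed that had an assigned long contig. The other 8 had none, among them Cfd (13596 and 29051 TPM), Adipoq (1462 and 891 TPM), the lipoprotein lipase Lpl (842 and 716 TPM) and the acetyl-CoA carboxylase Acaca (322 and 252 TPM). The longest annotated exon has 258 bases in Cfd, 955 in Adipoq, 3954 in Lpl and 4077 in Acaca. It has 2146 in Fasn, 3664 in Scd1, 1542 in Plin1 and 986 in Acly. Gene length, which limits a contig, was not compared.

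Of 15 long non-coding RNAs listed, 4 had an assigned long contig, and 2 contigs without an assigned gene lay at the place of another, Airn. Malat1, an abundant nuclear RNA whose contig was assigned by distance, gave 7317 bases at a level of 76.1 with no junction inside, against a longest annotated exon of 6983 bases, and stood at 231 and 164 TPM. Xist, the RNA of X inactivation, gave contigs of 7580 and 6791 bases at levels of 25.4 and 12.5, and stood at 40.5 and 21.9 TPM. Snhg11, a small nucleolar RNA host gene, gave 5224 bases at a level of 7.88, of which 5207 followed the acceptor of an exon annotated with 5207 bases. Meg3, an imprinted RNA with an annotated exon of 13087 bases, had no long contig at 313 and 372 TPM, and neither did Tug1 at 18.3 and 20.9 TPM. H19, at 611 and 22.1 TPM, has no annotated exon over 1315 bases.

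Of 25 genes listed for long exons, 6 had an assigned long contig, namely Peg3, Prlr, Zbtb20, Ahnak, Nav1 and Lpp. A contig of 5913 bases without an assigned gene, at a level of 19.1, lay at the place of another, Irs1, which encodes an insulin receptor substrate. Ahnak, a giant scaffold protein, gave 2, of 9746 and 5817 bases at levels of 13.5 and 4.20, while its longest annotated exon has 17498 bases. Zbtb20, a repressor of the zinc finger family, gave 5151 bases against a longest annotated exon of 24280, and this contig was assigned by distance, as was that of Lpp. Nfat5 (21.3 and 15.0 TPM) and Rora (12.2 and 11.4 TPM), with exons of 8360 and 9450 bases, had none. The list was chosen with earlier results known. Not every listed gene has an annotated exon of 5000 bases, since the longest has 850 bases in Thra, 1585 in Mdn1 and 2554 in Fbn1. Onecut2 stood at 0 TPM in both libraries, so 6 of 25 is not a yield among expressed long exons. Among all genes averaging 1 TPM or more whose most abundant transcript holds an exon of 5000 bases or more, 122 of 469 had a long contig of either kind. These are counts of genes with a long contig, not of long exons covered by one. By mean TPM this was 16 of 214 from 1 to 5 TPM, 66 of 182 from 5 to 20 TPM and 40 of 73 from 20 TPM on. A contig with no junction inside was found for 15, 59 and 29 genes in the same order.

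The 69 contigs without an assigned gene had a median level of 2.97, and 50 of them had no junction inside. A total of 12 lay wholly inside a matched intron on the same strand, at levels from 0.662 to 17.3. The lowest level of all members was among these, in an intron of Tns1, a focal adhesion protein gene, at chromosome 1, 74018234 to 74023471. The highest of the 12 lay in Trappc9 (5988 bases), where RefSeq places the imprinted non-coding RNA Peg13 at the same distances from both flanking introns.

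The spacing of the flanking introns in mm9 and in the annotation differed by at most 10 bases around 67 of the 69. By these distances, RefSeq had a gene on either strand, introns included, over at least part of the contig in 65. The longest, with 14020 bases at chromosome 2, 180124285 to 180138304, lay at the place of Mir1a-1hg and Mir133a-2, the host transcript and hairpin of the muscle microRNAs, with a level of 3.27. Another, with 10060 bases at chromosome 8, 86724747 to 86734806, lay at the place of Mir23a, Mir27a, Mir24-2 and, on the opposite strand, Mir3074-2, with a level of 5.46. A contig of 5332 bases at chromosome 15, 85533759 to 85539090, had a level of 2.20 and 1 junction inside. It lay at the place of the long non-coding RNA Lncppara and of Mirlet7c-2 and Mirlet7b. Contigs of 6228 and 5183 bases on chromosome 17 lay over Airn, the antisense RNA of the imprinted Igf2r locus, at levels of 3.03 and 1.24. RefSeq (GRCm38.p6) gives 10 mature microRNAs on the strand of the contigs of chromosomes 8 and 15, and 1 arm of each of the 5 hairpins is printed to show which microRNAs these places encode, with the seed, bases 2 to 8, in capitals. The libraries held RNA over 200 nt, so the contigs show long transcript signal at these places and no mature microRNA was measured.
miR-23a-3p: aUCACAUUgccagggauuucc
miR-27a-3p: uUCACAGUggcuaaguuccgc
miR-24-3p: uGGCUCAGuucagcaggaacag
let-7c-5p: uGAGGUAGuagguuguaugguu
let-7b-5p: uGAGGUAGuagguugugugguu
The let-7 pair shares its seed, GAGGUAG, and the 3 printed microRNAs of chromosome 8 have different seeds.

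A long contig was more frequent among genes with higher TPM. It was found for 0.774% of protein-coding genes with a mean of 1 to 5 TPM, 3.06% from 5 to 20 TPM, 9.65% from 20 to 100 TPM, 15.6% from 100 to 500 TPM and 19.8% from 500 TPM on. Contigs with a junction inside were found for 0.0893% of genes in the lowest class and 19.8% in the highest. Contigs without a junction were found for 0.685%, 1.98%, 1.79%, 0.719% and 0.461% of genes in the same order. The level and the TPM both follow depth, so this relation is a description and was not tested.

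**Figure D4:**
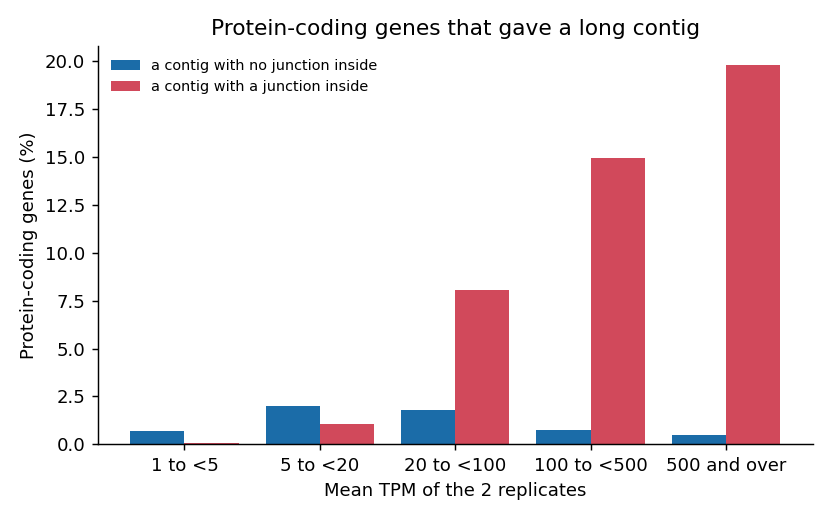
Bars give the percent of protein-coding genes with a long contig, by the mean TPM of the 2 replicates, separately for contigs without and with a junction inside. Contigs with a junction reach 19.8% of genes from 500 TPM on, and contigs without stay at 1.98% or less.

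Of the 802 genes, 797 were in the gene tables, and their median TPM was 43.7 in replicate 1 and 60.4 in replicate 2. The marker genes of skeletal muscle differed widely between the libraries. Acta1 stood at 11332 and 5.93 TPM, Ckm at 6496 and 2.03 TPM and Neb at 97.0 and 0.17 TPM. With Ttn, these 4 muscle markers summed to 17951 and 8.17 TPM, and the 2 skin markers to 70.6 and 3.28 TPM. The 4 adipocyte markers summed to 26142 and 48155 TPM, mostly Cfd and Fasn, while Adipoq was lower in replicate 2. The 4 luminal epithelial keratin and Epcam markers summed to 723 and 1253 TPM. The 4 basal epithelial markers summed to 633 and 497 TPM, mostly Acta2 (476 and 353 TPM), while the oxytocin receptor gene Oxtr stood at 40.7 and 60.2 TPM. The 3 lymphocyte markers summed to 681 and 1047 TPM. All the listed luminal, basal and adipocyte markers were detected in both libraries. Which tissue or cells they came from was not tested. In bulk tissue fewer cells of a type and less RNA per cell cannot be told apart.

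The median difference of log2(TPM + 1), replicate 2 minus replicate 1, was 0.32 over the 797 genes and 0.05 over all 14510 genes that averaged 1 TPM or more. Among the 797, 536 were higher in replicate 2 and 261 in replicate 1. Beyond 2-fold, 128 were higher in replicate 2, or 16.1%, against 13.0% of all genes tested, and 33 were higher in replicate 1, or 4.14%, against 8.83%. The first share is near that of all genes. The 599 genes with only junction-holding contigs had a median of 0.43, and the 188 with only junction-free contigs a median of -0.11. The GC content of their most abundant transcripts differed as well, with medians of 55.7% and 49.2%. In the 198 genes with the lowest GC content, up to 50.5%, the median difference was -0.34 and 57.6% had only junction-free contigs. In the 198 with the highest, from 57.9%, the values were 0.89 and 6.06%. Across genes, which are not independent replicates, Spearman's rho between GC content and the difference was 0.658 over 791 genes of long contigs and 0.569 over the other genes. At a mean of 20 to 100 TPM, the median difference was 0.43 over 412 genes of long contigs and 0.26 over 3923 other genes. The part of GC content, expression and tissue makeup in these differences was not tested.

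**Figure D5:**
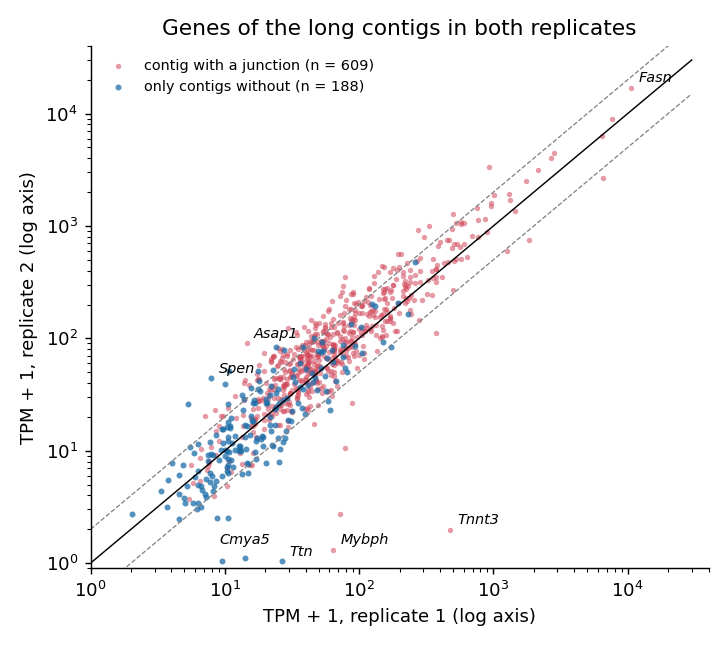
Each point is 1 of 797 genes of long contigs, with TPM + 1 in replicate 1 and replicate 2 on log axes. The solid line marks equal values and the dashed lines a 2-fold difference. Ttn, Tnnt3, Mybph and Cmya5 lie far below the lower dashed line.

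Among members averaging 5 TPM or more, the 10 genes that were highest in replicate 1 relative to replicate 2 were led by Tnnt3, the fast muscle troponin T. It stood at 474 and 0.98 TPM, Mybph, a myosin-binding protein, at 63.2 and 0.32 TPM, and Stac3, a muscle calcium channel adaptor, at 71.1 and 1.73 TPM. Ttn stood at 25.7 and 0.04 TPM, with expected counts of 67129 and 89, and Cmya5, a muscle costamere protein, at 13.1 and 0.1 TPM. Ttn is both a marker and the gene of 2 long contigs. The 3 other muscle markers, Acta1, Ckm and Neb, have no long contig and were higher in replicate 1, and the part of muscle RNA in these differences was not tested. The contig of Tnnt3 had 7449 bases with 89.2% intron, and that of Cmya5 had 8967 bases with no junction inside. Pde4dip, Ppm1l, Ube2b, Ndrg2 and Map3k20 made up the rest, with differences from -2.89 to -1.65. With a pseudocount of 10 TPM the differences of Ttn, Cmya5, Mybph and Stac3, -4.68, -3.68, -5.60 and -4.72, became -1.83, -1.19, -2.83 and -2.79. That of Map3k20 went from -1.65 to -1.01 and that of Ppm1l from -2.08 to -0.77, which is under 2-fold. With TMM-scaled counts Ttn was at -9.06 and Cmya5 at -7.08. Ppm1l, a membrane phosphatase gene, was also the 1 member whose score was above 0.

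In the other direction, Asap1, a GTPase activator of the cytoskeleton, stood at 13.6 and 89.4 TPM and Spen, a transcriptional repressor, at 6.92 and 43.1 TPM. The growth factor Fgf2 stood at 4.35 and 25.1 TPM. Pax5, the B cell transcription factor, stood at 9.75 and 49.8 TPM and Irf8, a factor of myeloid and B cells, at 28.4 and 122 TPM, while the B cell receptor gene Cd79a stood at 169 and 380 TPM. The splicing factors Sf1 and Sfpq, the actin-binding profilin Pfn1 (925 and 3342 TPM), Iqsec1 and Chst3 completed the 10, with differences from 1.85 to 2.17. The difference of Asap1 was 2.63 on the log2(TPM + 1) scale, but 0.86 with counts scaled by TMM and 0.92 with DESeq2 size factors, both under 2-fold, from expected counts of 3073 and 3999. With TMM, that of Iqsec1 went from 1.96 to 1.11, that of Sf1 from 2.17 to 1.29 and that of Chst3 from 1.96 to 1.24, and Fgf2 went from 2.29 to 1.29 with a pseudocount of 10 TPM. With 2 libraries, none of these differences has a replicate check of its own.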

How the data were processed

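The contig table and the junction table have no header, cover the series as a whole and are on mm9, per the text notes beside them. The contig signal deposited by the authors is a read-base density, since the deposited sum of read bases (a signal) divided by length and level gave 18.5 to 18.9 in every row. The score deposited by the authors in both tables has no definition in the sources used here, and a limit of 0.1 was applied. The junction count deposited by the authors is the number of reads. Gene tables on mm10 with GENCODE M4, per the text notes, hold expected counts, TPM and FPKM as the authors deposited them, and the transcript tables hold the isoform percent deposited by the authors. Aligner and quantifier: not given in the sources used here. Expected counts summed to 56323489 in replicate 1 and 42400470 in replicate 2.

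Genes were named without moving coordinates between builds. Chains of 2 introns and the exon between them were matched by length, chromosome and strand to GENCODE M21, and a contig took the gene that most junctions touching it matched. Of 139927 junctions, 118933 matched. The matcher was tested on simulated data before use. Contigs left over were named, by a step chosen after the data were seen, when a single annotated exon of at least 80% of their length overlapped them by 50% from both flanking matched introns. RefSeq genes at unnamed contigs were found by distances to the same flanking introns, also after the data were seen. This rule was looser: any overlap with a gene's span, introns included and on either strand, was accepted. Introns inside contigs were measured on mm9, as the bases skipped by any matched junction inside, without removing bases that are exon in another transcript.

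The members, the gene lists and the rule for named contigs (10 longest, 10 highest, 5 with most junctions, 5 longest without, 5 of lowest depth, 3 on either side of the threshold) and genes (10 largest differences each way at 5 TPM or more) were chosen with earlier results of these data known. Replicates were compared on log2(TPM + 1) for genes averaging 1 TPM or more. Alternatives were other length and score limits, junction rules, chains of 1 and 3 introns, pseudocounts, filters, FPKM, TMM-scaled counts (edgeR 4.0.16), DESeq2 1.42.0 size factors, and each replicate alone. Python 3.11.15 with pandas 2.3.3 and scipy 1.17.1 was used.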

Additional observations from a re-analysis of the deposited data

How the results depend on the processing

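The number of long contigs, 906, became 1935 at 4000 bases and 44 at 10000 bases. The share with no junction inside, 27.9%, became 36.4% at 4000 bases and 9.09% at 10000 bases, 41.7% with junctions of score under 0.01, 7.40% with junctions of any score and 7.06% when 1 end inside was enough. The median level, 8.87, became 7.53 at 4000 bases and 14.25 at 10000 bases. Other score limits on the contigs gave 905 and 909 contigs, and junctions on either strand gave a share of 26.5%. Genes were named for 526 contigs with single introns, 741 with chains of 3 introns and 837 with naming by distance as well. The same gene was given in 478 of 502 and 740 of 741 contigs named both ways. The median difference between replicates stayed positive, from 0.24 to 0.35, under every pseudocount, filter, unit and scaling run. Over all genes the median moved as well, from -0.014 with FPKM to 0.148 at a mean TPM of at least 5. The median TPM of the genes was 43.7 and 60.4 in the single replicates. No paired analysis was possible because both libraries belong to 1 group. The contig table has no value per replicate, so no contig has a replicate error, and a low level can end a contig early.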

Other observations

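The 5 members with the lowest read depth lay at depths of 12.4 to 18.8. They were the Tns1 intron contig, an unassigned contig in an intron of Dazap1 (5112 bases, level 0.819), a contig assigned to Apc2 by distance (5329 bases, level 0.879), an unassigned contig in an intron of D17Wsu92e (5092 bases, level 0.891) and a contig of Sugp1 (5169 bases, level 1.00). The Apc2 gene stood at 1.05 and 1.74 TPM. Gm5182, a processed pseudogene named by distance, had the highest level of the contigs without a junction, 76.4 over 7257 bases, just above Malat1, and has no entry in the gene tables. On the strand opposite to a long intron of Ralgps1, the Angptl2 contig covered 6183 bases at a level of 44.5 with 2 junctions inside. Among unassigned contigs, those at the places of Gpx3 (5919 bases) and Atp2a1, a muscle calcium pump gene (5766 bases), had levels of 119 and 131.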
